A study of Mus musculus with 21 samples.

Results

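The genes described here are the mouse cyclins and cyclin-dependent kinases (CDKs), taken by symbol: Ccn followed by a letter and an optional number, or Cdk followed by a number and an optional a or b, so that the CDK inhibitors (Cdkn genes) are left out. The rule found 44 genes, 25 cyclins and 19 CDKs. The table of sorted cells held 43 of them among 27968 genes, and the table of cocultured cells held 44 among 22899, the additional gene being Ccnq. The study derived blood-forming cells from mouse embryonic stem cells (mESC) in a 3D self-assembling peptide system and then cultured them on OP9, a mouse stromal line. RNA-seq was carried out on 21 libraries, 3 replicates in each of 7 groups.

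Of the 7 groups, 5 were sorted cells in one table. mESC were 129/ola embryonic stem cells sorted with an antibody to SSEA-1. D5-LSKCD201+ and D5-LSKCD201- were Lin- Sca-1+ c-kit+ (LSK) cells with and without the surface receptor CD201, sorted on day 5 of 3D+OP9 from differentiated 129/ola cells, and are also called the CD201+ and CD201- day 5 cells. BM-LSKCD201+ were the LSK CD201+ cells of bone marrow from C57BL/6 mice aged 6 to 8 weeks, and FL-LSKCD201+ those of fetal liver from C57BL/6 embryos at E12.5. The day 5 cells and mESC therefore differ from the in vivo cells in strain as well as in source, and strain and source cannot be told apart. The other 2 groups, in a second table, were total 129/ola-derived cells on day 5, reseeded either on mitomycin C-treated OP9 cells (3D+OP9) or on the coating without stromal cells (3D+0.1% gelatin). The medium of the OP9 coculture held stem cell factor, IL-3 and Flt3 ligand. OP9 cells are mouse cells, so their RNA cannot be told apart by sequence in the total cells.

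The CDKs of the cell cycle are inactive until a cyclin binds them. D-type cyclins with CDK4 or CDK6 act in G1 by phosphorylating the retinoblastoma protein, E-type cyclins with CDK2 act at the entry into S phase, A-type cyclins act through S and G2, and B-type cyclins with CDK1 drive mitosis. Other members, such as cyclin T with CDK9 and cyclin C with CDK8 or CDK19, act on transcription rather than on cell cycle phase, while cyclin H with CDK7 both activates the cell cycle kinases and acts on transcription. In the blood system, adult hematopoietic stem cells are mostly quiescent, whereas those of the fetal liver divide often.

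Values are FPKM, in which fragment counts are scaled to transcript length and to the mapped total of a library. Comparisons, sums and shares of different genes within one table rest on that scaling, which was not checked gene by gene. Some levels differed widely between the 2 tables. Group means of Ccnk were 0.779 to 2.04 FPKM in the sorted cells, and 44.9 on OP9 and 47.3 on gelatin. The tables used here hold FPKM only, so the sequencing depth behind them is unknown. Differences are log2(FPKM + 1) differences from limma, with a standard error (SE) and a p adjusted by Benjamini-Hochberg over all genes tested, and they understate the change of genes near 1 FPKM. A gene entered a test when it averaged 0.5 FPKM or more across the compared libraries, and it is called higher or lower here when the adjusted p is under 0.05 and the log2 difference is at least 1 in size. In sorted and total bulk cells alike, fewer cells of a type and less RNA per cell cannot be told apart.

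One library stood apart from the closest pair of its group in 4 groups: replicate 1 of BM-LSKCD201+, replicate 1 of FL-LSKCD201+, replicate 2 of D5-LSKCD201- and replicate 3 of 3D+OP9. Within each closest pair Pearson's r across genes was 0.996 or more, and with the library that stood apart it was between 0.976 and 0.989. Marker genes did not match all labels. The summed level of 9 pluripotency genes was 3773 to 4273 FPKM in D5-LSKCD201- and 6880 to 7444 in mESC, with all 9 at 1 FPKM or more in both, against 24.6 to 33.1 in D5-LSKCD201+. In D5-LSKCD201+, 8 endothelial genes summed to 1712 to 1743 FPKM, and 9 stromal genes to 90.4 to 94.8 (6.42 to 7.2 in BM-LSKCD201+ and 12.2 to 14.9 in FL-LSKCD201+). The 6 blood genes summed to 58.5 to 60.5 FPKM there, with 3 of them at 1 FPKM or more, against 13.8 to 15.5 in D5-LSKCD201-, 789 to 885 in BM-LSKCD201+ and 878 to 1047 in FL-LSKCD201+. Most of that sum was Itga2b, which encodes the surface integrin CD41, at 44.4 to 45.6 FPKM (11.3 to 11.8 in bone marrow and 8.30 to 8.74 in fetal liver), and Coro1a stood at 11.0 to 13.1. Ptprc, which encodes the pan-leukocyte protein CD45, was low in both day 5 groups, at 0.305 to 0.602 FPKM in the CD201+ and 0.419 to 0.935 in the CD201- cells. All 6 erythroid genes were at 1 FPKM or more in FL-LSKCD201+, with sums of 4801 to 10878 FPKM, and 7 myeloid genes summed to 2174 to 2470 there, 487 to 528 in BM-LSKCD201+ and 7.74 to 8.08 in D5-LSKCD201+, although the sort gate was Lin-. The part of these other transcripts in the differences below was not tested.

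Between D5-LSKCD201+ and D5-LSKCD201-, 41 of the 43 members passed the filter on low values and were tested, Ccnb3 and Cdk15 being too low. Higher in D5-LSKCD201+ was 1 member (2.44%), where 10.8% of all 13691 genes tested were called higher, and lower were 5 members (12.2%), against 13.9% of all genes. The median member differed by -0.29 and the median gene by -0.12. The share of members called lower was thus near that of all genes, and few members were called higher. With a pseudocount of 0.1 the count was 10 instead of 6 (2 higher and 8 lower, against 14.3% and 18.3% of all genes), and after quantile normalization it was 2 higher and 4 lower (12.5% and 11.7%). On the adjusted p alone 25 of the 41 members differed, where 68.3% of all genes did. Of these 5 were higher (28.7% of all genes) and 20 lower (39.6%). Among the 20 were 2 members, Ccna1 and Ccno, that passed the filter only through the CD201- cells. The filter thus favored a difference in them and fixed its direction, and both were also among the 10 with a pseudocount of 0.1.

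In the other comparisons the members' calls ranged from few to many. Against mESC, 4 of 40 members were called higher in D5-LSKCD201+ (19.5% of all genes) and 8 lower (18.1%). D5-LSKCD201- differed from mESC in 2 members called higher (10.9% of all genes) and 1 called lower (3.48%), of 41. One of those higher in each of these comparisons with mESC, Cdk14, averaged under 0.5 FPKM in mESC. It passed the filter on low values only through the day 5 cells, which favored a difference and fixed its direction. Against FL-LSKCD201+, D5-LSKCD201+ had 3 of 39 members higher (15.1% of all genes) and 10 lower (19.6%). The most calls came against BM-LSKCD201+, with 13 of 39 members (33.3%) higher in D5-LSKCD201+ where 17.5% of all genes were, and 11 (28.2%) lower where 27.2% were. FL-LSKCD201+ had 9 of 39 members (23.1%) higher than BM-LSKCD201+ (7.78% of all genes) and 2 lower (11.3%). On the adjusted p alone the members that differed were 31 of 40 for D5-LSKCD201+ against mESC (85.5% of all genes), 19 of 41 for the CD201- day 5 cells against mESC (54.6%), 26 of 39 for D5-LSKCD201+ against fetal liver (72.1%), 34 of 39 for the same cells against bone marrow (83.4%) and 29 of 39 between fetal liver and bone marrow (55.1%). The members tested against mESC included Cdk14 and Cdk19, and for D5-LSKCD201+ also Ccno. These passed the filter only through the group where they were higher, so the filter favored a difference in them and fixed its direction. Several of these comparisons share the D5-LSKCD201+, mESC, fetal liver or bone marrow libraries and are not independent of each other.

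Ordered by mean level over the 41 members that reached 0.5 FPKM in some sorted group, BM-LSKCD201+ was the highest group for 16 members and the lowest for 14, which counts Ccna1, listed at 0 in bone marrow and fetal liver alike. mESC were highest for 11 and lowest for 10, D5-LSKCD201+ highest for 6 and lowest for 11, FL-LSKCD201+ highest for 5 and lowest for 2, and D5-LSKCD201- highest for 3 and lowest for 4. The same order was not counted over all genes, so these counts cannot be read as particular to the members.

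**Figure D1:**
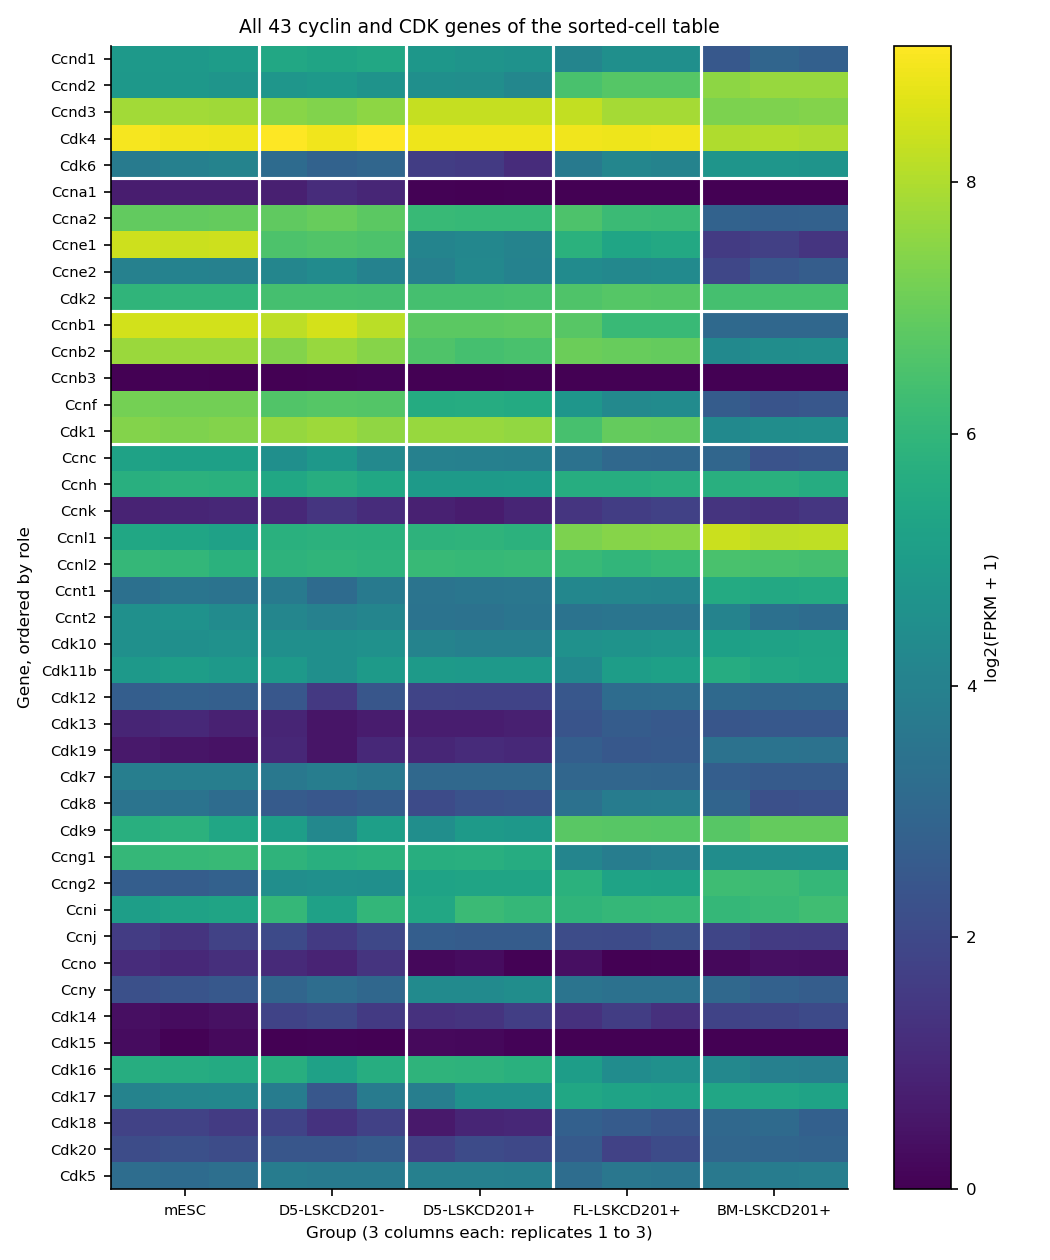
Level of each of the 43 cyclin and CDK genes of the sorted-cell table, as log2(FPKM + 1), in each of the 15 libraries, with genes grouped by role (rows) and 3 columns per group for replicates 1 to 3. Ccne1, Ccna2, Ccnb1, Ccnb2, Ccnf and Cdk1 are darkest (lowest) in BM-LSKCD201+, and Ccnd2 and Ccnl1 are brightest there.

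The D-type cyclins, the partners of CDK4 and CDK6 in G1, differed in their order over the groups. Ccnd3 was the most abundant D-type cyclin in 4 of the 5 sorted groups. It stood at 311, 311 and 309 FPKM in D5-LSKCD201+, at 179, 162 and 188 in the CD201- day 5 cells, at 226, 224 and 218 in mESC, at 308, 230 and 232 in FL-LSKCD201+ and at 156, 162 and 169 in BM-LSKCD201+. Every D5-LSKCD201+ library was above every other sorted library. The difference between the day 5 groups was 0.82 (SE 0.06, adjusted p = 2.35e-05), under the fold threshold, and it was 0.93 (SE 0.05, adjusted p = 8.36e-07) against bone marrow.

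Ccnd2 showed another order. Its level was 187, 204 and 202 FPKM in bone marrow and 87.1, 102 and 102 in fetal liver, and it was 27.7, 27.8 and 26.0 in mESC, 26.6, 28.1 and 24.3 in the CD201- day 5 cells and 21.8, 21.5 and 17.3 in D5-LSKCD201+. No in vivo library overlapped any cultured one. Ccnd2 was lower in D5-LSKCD201+ than in bone marrow by -3.24 (SE 0.09, adjusted p = 4.92e-08), a mean 9.80-fold higher in bone marrow, and lower than in fetal liver by -2.21 (SE 0.11, adjusted p = 3.85e-06). Fetal liver itself was below bone marrow by -1.02 (SE 0.10, adjusted p = 0.000146), but without fetal liver replicate 1, which stood apart, the difference was -0.95 and under the fold threshold. The day 5 groups differed by -0.37 (SE 0.11, adjusted p = 0.0165).

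Ccnd1 was highest in the CD201- day 5 cells, with 42.9, 38.7 and 42.8 FPKM, against 26.8, 24.8 and 23.5 in D5-LSKCD201+, 29.2, 29.0 and 31.4 in mESC, 16.4, 22.1 and 22.0 in FL-LSKCD201+ and 4.73, 6.86 and 5.87 in BM-LSKCD201+. The day 5 groups did not overlap and differed by -0.71 (SE 0.07, adjusted p = 0.000117). Bone marrow was the lowest group, below D5-LSKCD201+ by a log2 difference of 1.94 (SE 0.12, adjusted p = 2.9e-06) and below fetal liver by 1.63 (SE 0.17, adjusted p = 0.000178).

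Summed over the 3 genes, D-type cyclin levels were close to each other in 3 groups, with 356 ± 5.12 FPKM (SD, n = 3) in D5-LSKCD201+, 366 ± 16.1 in BM-LSKCD201+ and 374 ± 32.5 in FL-LSKCD201+, against 280.0 ± 3.96 in mESC and 244 ± 13.2 in the CD201- day 5 cells. Their make-up differed more than their sum. Ccnd2 made up 54.1% ± 0.616 of the sum in BM-LSKCD201+, 26.2% ± 4.34 in FL-LSKCD201+, 10.8% ± 1.38 in the CD201- day 5 cells, 9.70% ± 0.242 in mESC and 5.67% ± 0.633 in D5-LSKCD201+ (SD, n = 3 each). Ccnd3 made up 44.3% ± 0.826 in bone marrow and 87.3% ± 0.947 in D5-LSKCD201+. The Ccnd2 share was 5.67% in D5-LSKCD201+, a difference of -5.17 percentage points from D5-LSKCD201-, with no overlap of the replicates, at a two-sided exact permutation p of 0.1, the smallest that 3 against 3 libraries can give.

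**Figure D2:**
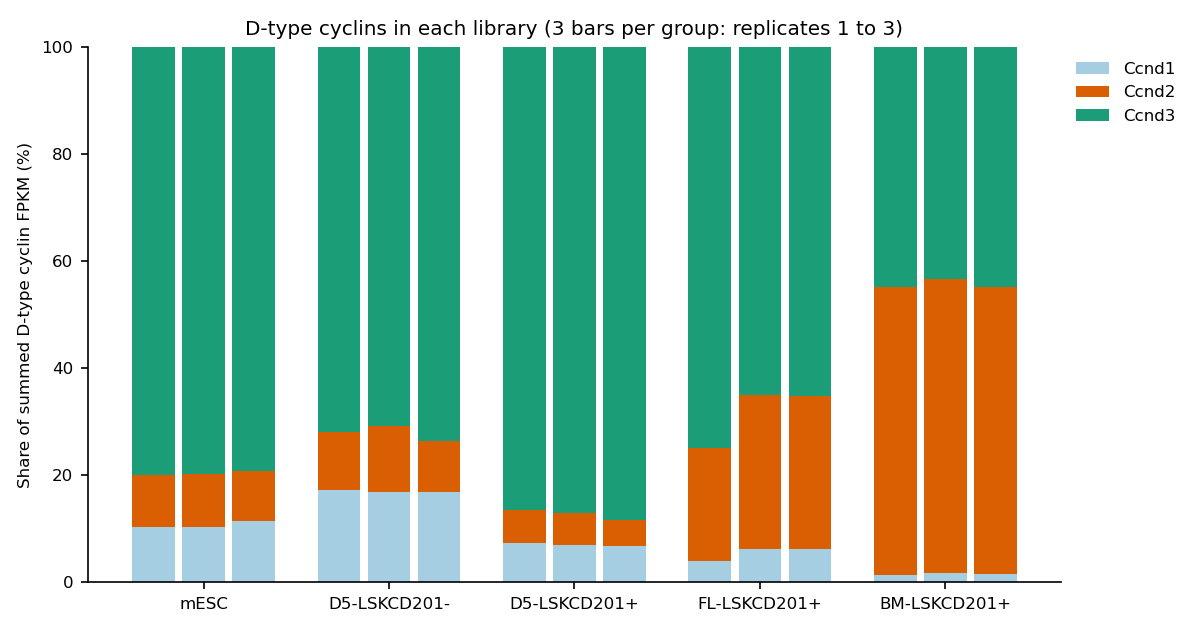
Share (%) of the summed Ccnd1, Ccnd2 and Ccnd3 FPKM held by each gene, as stacked bars for each of the 15 sorted-cell libraries (3 bars per group). Ccnd2 takes 53.6% to 54.8% in the bone marrow libraries and 4.94% to 6.06% in the D5-LSKCD201+ libraries.

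Cdk4 was the most abundant member in 4 of the 5 sorted groups, bone marrow excepted, where Ccnl1 was higher. Its level was 465, 459 and 462 FPKM in D5-LSKCD201+, 543, 479 and 536 in the CD201- day 5 cells, 494, 479.6 and 467 in mESC, 473, 461 and 469 in FL-LSKCD201+ and 254, 259 and 252 in BM-LSKCD201+. Only bone marrow stood clearly below the rest. The difference was -0.17 (SE 0.06, adjusted p = 0.0426) between the day 5 groups, 0.85 (SE 0.04, adjusted p = 6.1e-07) for D5-LSKCD201+ over bone marrow and 0.87 (SE 0.09, adjusted p = 0.000181) for fetal liver over bone marrow, all under the fold threshold. The day 5 difference lost its adjusted p under 10 of 14 alternatives, over which it ran from -0.22 to -0.038 and the adjusted p from 0.000314 to 0.63, with the smallest difference after quantile normalization.

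Cdk6, the other D-type cyclin partner, was lowest in D5-LSKCD201+. It stood there at 2.17, 1.95 and 1.25 FPKM, against 8.15, 6.27 and 6.96 in the CD201- day 5 cells, 12.8, 14.4 and 15.7 in mESC, 12.0, 17.1 and 15.5 in FL-LSKCD201+ and 25.5, 26.6 and 25.0 in BM-LSKCD201+. The D5-LSKCD201+ libraries were below all others. The log2 difference was -1.55 (SE 0.16, adjusted p = 0.000107) from D5-LSKCD201-, -2.47 (SE 0.13, adjusted p = 1.5e-07) from mESC, -2.51 (SE 0.18, adjusted p = 1.66e-05) from fetal liver and -3.27 (SE 0.13, adjusted p = 2.81e-07) from bone marrow, where the mean was 14.4-fold higher. Of the sum of Cdk4 and Cdk6, Cdk6 held 9.15% ± 0.132 in bone marrow, 3.08% ± 0.557 in fetal liver, 2.90% ± 0.362 in mESC, 1.35% ± 0.111 in the CD201- day 5 cells and 0.386% ± 0.103 in D5-LSKCD201+ (SD, n = 3 each). The day 5 shares differed by -0.964 percentage points at an exact permutation p of 0.1, again the smallest possible.

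**Figure D3:**
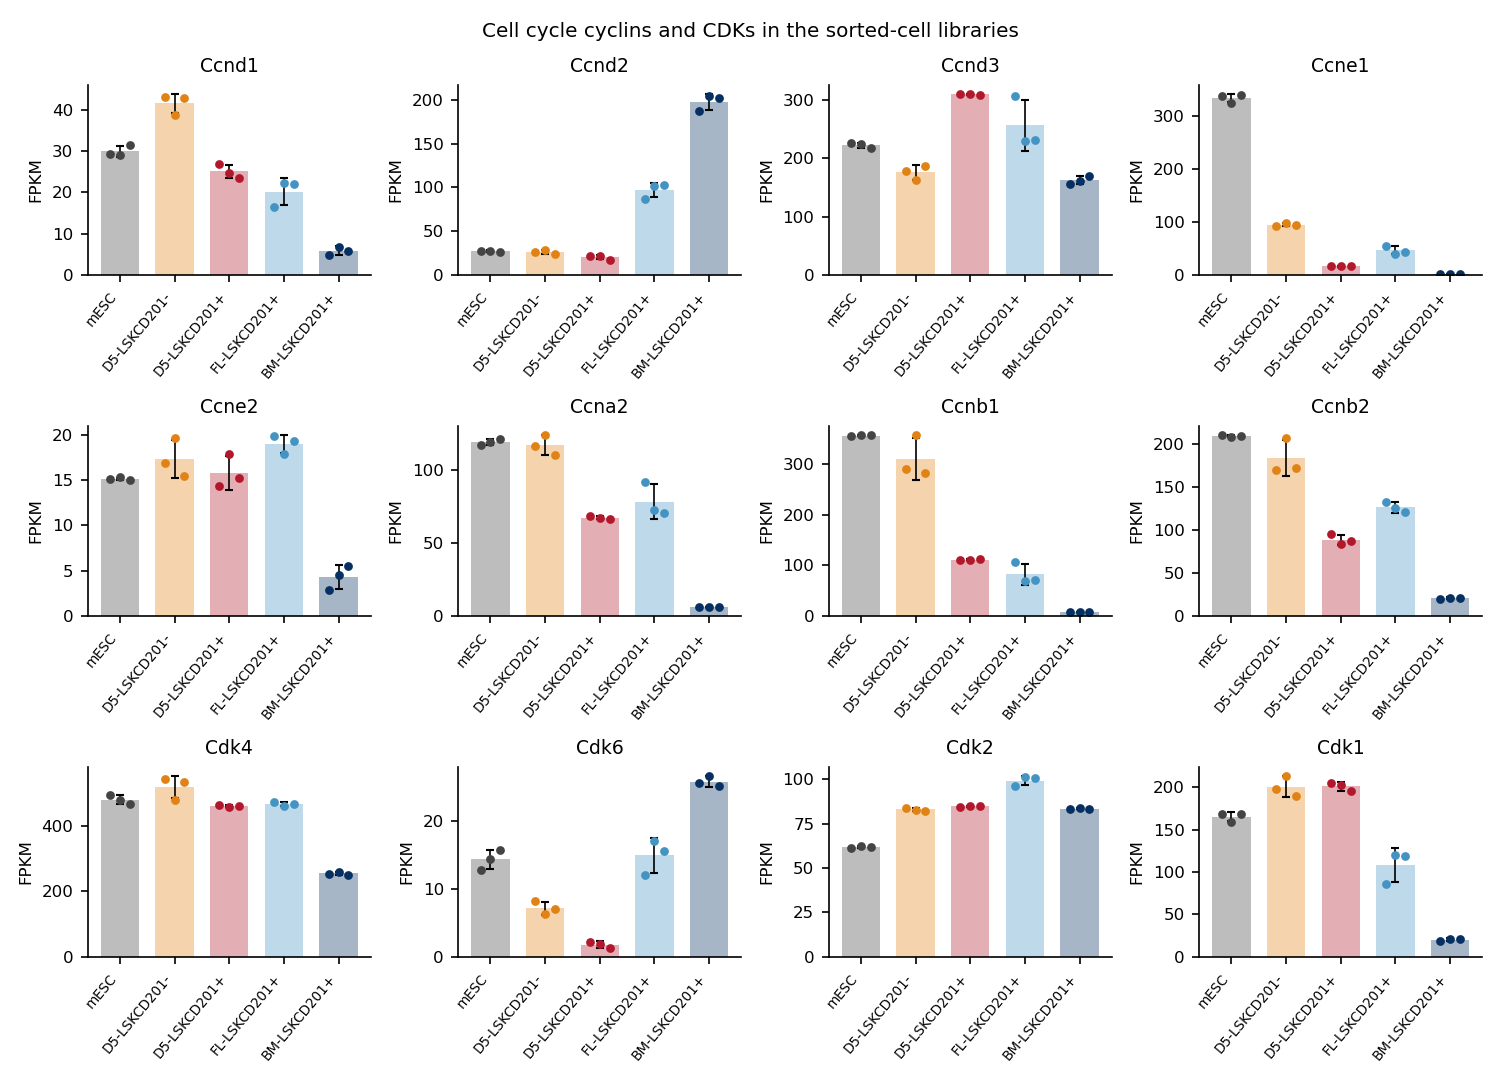
FPKM of 12 cell cycle cyclins and CDKs in the 5 sorted groups (bars: mean of 3 libraries, error bars: SD, points: libraries), each panel on its own axis from 0. Ccnd2 and Cdk6 are highest in BM-LSKCD201+, whereas Ccne1, Ccna2, Ccnb1, Ccnb2 and Cdk1 are lowest there.

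Ccne1, the E-type cyclin that activates CDK2 before S phase, had the largest log2(FPKM + 1) difference of any member between the day 5 groups (with a pseudocount of 0.1 that of Ccna1, which is near 0 FPKM, was larger, at -3.15 against -2.52). Its level was 16.0, 17.7 and 15.8 FPKM in D5-LSKCD201+, 92.5, 98.4 and 93.6 in the CD201- day 5 cells, 338, 324 and 339.6 in mESC, 54.6, 40.0 and 43.8 in FL-LSKCD201+ and 2.0, 2.27 and 1.65 in BM-LSKCD201+. No 2 groups overlapped. The difference was -2.45 (SE 0.06, adjusted p = 1.73e-07) between the day 5 groups, with a mean 5.75-fold higher in the CD201- day 5 cells. It was -4.26 (SE 0.05, adjusted p = 1.11e-11) against mESC, a 20.2-fold difference of means, and -1.42 (SE 0.12, adjusted p = 4.98e-05) against fetal liver. D5-LSKCD201- was itself below mESC, by -1.81 (SE 0.05, adjusted p = 5.65e-07), the one member called lower in that comparison. Over bone marrow, Ccne1 was higher by 2.56 (SE 0.10, adjusted p = 2.44e-07) in the CD201+ day 5 cells and by 3.98 (SE 0.15, adjusted p = 2.32e-06) in fetal liver. The pluripotency genes, summed above, were high in the same groups in which Ccne1 was highest, and their part was not tested.

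Ccne2, the second E-type cyclin, did not follow Ccne1. It was 14.4, 17.9 and 15.2 FPKM in D5-LSKCD201+ and 16.9, 19.7 and 15.5 in the CD201- day 5 cells, and the groups overlapped (difference -0.13, SE 0.12, adjusted p = 0.365). mESC (15.0 to 15.3) and fetal liver (17.9 to 19.8) lay in the same range, whereas bone marrow lay at 2.84, 4.54 and 5.47 FPKM. The log2 difference of D5-LSKCD201+ over bone marrow was 1.70 (SE 0.19, adjusted p = 9.1e-05), and that of fetal liver over bone marrow 1.96 (SE 0.19, adjusted p = 0.000153). Ccne1 therefore made up 95.7% ± 0.145 of E-type cyclin FPKM in mESC, 84.6% ± 1.23 in the CD201- day 5 cells, 70.6% ± 2.40 in fetal liver, 51.1% ± 1.5 in D5-LSKCD201+ and 32.6% ± 9.09 in bone marrow (SD, n = 3 each).

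Ccna2, the A-type cyclin of dividing somatic cells, stood at 68.6, 67.3 and 66.3 FPKM in D5-LSKCD201+, 117, 125 and 111 in the CD201- day 5 cells and 117, 119 and 122 in mESC. In fetal liver it was 92.3, 72.6 and 70.6, and in bone marrow 6.30, 5.91 and 6.10. The day 5 groups did not overlap, with a difference of -0.79 (SE 0.06, adjusted p = 2.01e-05), while D5-LSKCD201- and mESC overlapped (-0.03, SE 0.06, adjusted p = 0.713). Against bone marrow Ccna2 was higher by 3.27 (SE 0.05, adjusted p = 3.82e-09) in the CD201+ day 5 cells and by 3.47 (SE 0.12, adjusted p = 1.88e-06) in fetal liver. Ccna1, the A-type cyclin of germ cells, was near the lower end of detection: 0.757 to 1.23 FPKM in the CD201- day 5 cells, 0.668 to 0.681 in mESC, at most 0.0352 in D5-LSKCD201+ and listed at 0 in every fetal liver and bone marrow library. Between the day 5 groups Ccna1 passed the filter on low values only through the CD201- cells, so its test there is not reported.

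Cdk2, the kinase that E- and A-type cyclins share, varied little. It was 84.2, 84.8 and 85 FPKM in D5-LSKCD201+, 84.0, 82.9 and 82.1 in the CD201- day 5 cells, 83.2, 83.6 and 83.2 in bone marrow, 96.1, 101 and 100.4 in fetal liver and 61.1, 62.2 and 61.6 in mESC. The differences of D5-LSKCD201+ were 0.03 (SE 0.04, adjusted p = 0.594) from D5-LSKCD201- and 0.02 (SE 0.04, adjusted p = 0.585) from bone marrow, and 0.45 (SE 0.03, adjusted p = 1.02e-06) from mESC. The kinase transcript thus spanned a narrow range while its cyclins spanned a wide one.

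Of the mitotic members, 3 of the 4 tested were called lower in D5-LSKCD201+ than in the CD201- day 5 cells, against 13.9% of all genes. Ccnb1, the main mitotic cyclin, was 111, 110.5 and 113 FPKM in D5-LSKCD201+ and 290.1, 358 and 283 in the CD201- day 5 cells, a difference of -1.46 (SE 0.09, adjusted p = 8.79e-06). Ccnb2, the second B-type cyclin, was 94.7, 82.9 and 87.2 against 169.8, 207 and 172, a difference of -1.04 (SE 0.09, adjusted p = 5.07e-05). Ccnf, which encodes cyclin F, a substrate-recognition subunit of an SCF ubiquitin ligase that binds no CDK, was 47.7, 48.8 and 46.4 against 98.5, 102 and 98.7, a difference of -1.05 (SE 0.05, adjusted p = 2.13e-06). None of these overlapped between the day 5 groups. Ccnb2 lay close to the fold threshold and fell short of it without D5-LSKCD201- replicate 2, the library that stood apart (-0.95), narrowly without D5-LSKCD201+ replicate 2, and after quantile normalization (-0.98).

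Cdk1, the kinase these B-type cyclins activate, was not called between the day 5 groups. Its level was 206, 203 and 196 FPKM in D5-LSKCD201+ and 199, 214 and 190.3 in the CD201- day 5 cells. The groups overlapped, and the difference was 0.0039 (SE 0.06, adjusted p = 0.958). In mESC it was 169, 159 and 168 FPKM, below both day 5 groups.

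Against mESC, D5-LSKCD201+ was lower in Ccnb1 by -1.67 (SE 0.03, adjusted p = 1.02e-10), in Ccnb2 by -1.24 (SE 0.05, adjusted p = 1.63e-08) and in Ccnf by -1.55 (SE 0.03, adjusted p = 5.3e-10). Their mESC levels were 355 to 357 FPKM for Ccnb1, 208 to 211 for Ccnb2 and 139.7 to 143 for Ccnf. In D5-LSKCD201- none of the 3 was called against mESC (-0.21 for Ccnb1, -0.20 for Ccnb2 and -0.50 for Ccnf). The proliferation genes Pcna and Top2a were also lower in D5-LSKCD201+ than in the CD201- day 5 cells on the adjusted p (-0.87 and -0.65), and the value for Mki67 was 0.07 (adjusted p = 0.638). The part of the pluripotent transcripts of D5-LSKCD201- in these differences was not tested.

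Bone marrow cells had the lowest levels of all these mitotic genes. Ccnb1 was 7.56, 7.14 and 7.14 FPKM there and 106, 69.7 and 70.1 in fetal liver. For Ccnb2 the values were 19.1, 21.0 and 21.3 in bone marrow and 132, 125 and 120.3 in fetal liver. Cdk1 stood at 19.0, 21.1 and 21.3 in bone marrow and 85.4, 121 and 119 in fetal liver, and Ccnf at 5.19, 4.13 and 4.54 against 26.3, 18.6 and 19.7. Fetal liver and bone marrow overlapped in none of the 4. The share of all genes without overlap was not counted, and 55.1% of all genes differed there on the adjusted p alone. Fetal liver was higher by 3.29 (SE 0.17, adjusted p = 8.72e-06) in Ccnb1, 2.56 (SE 0.09, adjusted p = 1.69e-06) in Ccnb2, 2.33 (SE 0.14, adjusted p = 2.07e-05) in Cdk1 and 1.99 (SE 0.15, adjusted p = 4.97e-05) in Ccnf. The erythroid and myeloid transcripts of the fetal liver libraries were higher in the same comparison, and their part was not tested.

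D5-LSKCD201+ was likewise above bone marrow in all 4, by 3.76 (SE 0.05, adjusted p = 1.92e-09) in Ccnb1, 2.06 (SE 0.07, adjusted p = 1.08e-07) in Ccnb2, 3.24 (SE 0.06, adjusted p = 5.76e-09) in Cdk1 and 3.12 (SE 0.08, adjusted p = 3e-08) in Ccnf. Against fetal liver the 4 genes split. Ccnf was higher in D5-LSKCD201+ by 1.12 (SE 0.13, adjusted p = 0.000215), Cdk1 by 0.91 (SE 0.14, adjusted p = 0.000922) and Ccnb1 by 0.47 (SE 0.16, adjusted p = 0.0377), while Ccnb2 was lower by -0.51 (SE 0.08, adjusted p = 0.000989), and only Ccnf passed the fold threshold. Ccnb3, a B-type cyclin of germ cells, was at most 0.0605 FPKM in any sorted library and was not tested. Separate rows for pseudogene copies of 2 members, Ccnb2-ps and Ccnd3-ps, reached at most 0.572 FPKM.

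Because Ccnb1, Ccnb2 and Ccnf were lower in D5-LSKCD201+ while Cdk1 was not called, the sequence just upstream of their start sites is shown (RefSeq, GRCm38.p6, minus strand, written 5′ to 3′ along the gene, from chr13:100786571-100786736 for Ccnb1, chr9:70421555-70421804 for Ccnb2, chr17:24251485-24251659 for Ccnf and chr10:69352939-69353162 for Cdk1, without bases that the GENCODE M21 annotation places in an exon of the gene). Capitals mark the CCAAT box, the cell cycle genes homology region (CHR, spelled TTTGAA or, in a variant, TTCGAA) and the E2F words TTTGGCGC, TTTCCCGC, TTTCGCGC and TTTGCCGC, each searched on both strands, so that ATTGG marks CCAAT on the other strand.
Ccnb1: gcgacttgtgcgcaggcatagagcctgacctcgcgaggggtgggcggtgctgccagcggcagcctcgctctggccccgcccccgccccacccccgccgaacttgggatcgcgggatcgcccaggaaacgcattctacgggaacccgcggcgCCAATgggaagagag
Ccnb2: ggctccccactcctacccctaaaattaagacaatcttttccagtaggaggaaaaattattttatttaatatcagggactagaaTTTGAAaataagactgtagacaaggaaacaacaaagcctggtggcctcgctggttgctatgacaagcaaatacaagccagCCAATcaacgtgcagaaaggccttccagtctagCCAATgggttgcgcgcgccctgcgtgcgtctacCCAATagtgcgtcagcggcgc
Ccnf: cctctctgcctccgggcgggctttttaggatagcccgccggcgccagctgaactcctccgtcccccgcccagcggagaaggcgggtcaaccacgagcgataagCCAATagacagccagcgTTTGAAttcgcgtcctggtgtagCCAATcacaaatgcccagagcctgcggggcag
Cdk1: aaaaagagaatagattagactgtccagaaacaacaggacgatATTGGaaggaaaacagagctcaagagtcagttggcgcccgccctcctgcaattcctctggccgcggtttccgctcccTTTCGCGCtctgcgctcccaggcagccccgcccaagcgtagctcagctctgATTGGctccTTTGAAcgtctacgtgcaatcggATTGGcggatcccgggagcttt

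The printed stretches hold 1 CCAAT in Ccnb1, 3 in Ccnb2, 2 in Ccnf and 3 in Cdk1, and TTTGAA once each in Ccnb2, Ccnf and Cdk1. Cdk1 alone of the 4 holds an E2F word there. Promoter windows were at hand for 35 of the 44 members. In the 250 bases before the start, CCAAT was found in 17 of the 35 members and in 33.8% of all 32851 windows, CHR words in 5 members and 17.1% of all windows, and E2F words in 2 members (Cdk1 and Cdk2) and 1.86% of all windows. A CCAAT and a CHR word together were present in 6.02% of all windows, in 3 of 5 members of G2 and M phase, in 1 of 10 atypical members (Cdk16) and in no member of the other roles. The 250 bases before Ccne1 and Cdk6 held none of these words. A match describes the letters of a window only.

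The members that activate other CDKs or act on transcription numbered 15 in the sorted-cell table, and none of them was called between the day 5 groups, and 8 of the 15 passed the adjusted p alone (7 of them lower in D5-LSKCD201+), a criterion that 68.3% of all genes met. Their median difference was -0.29. Ccnh and Cdk7, which form the CDK-activating kinase, were both lower on the adjusted p, by -0.53 (SE 0.08, adjusted p = 0.00101) and -0.62 (SE 0.09, adjusted p = 0.000569).

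Against mESC, Ccnc and Cdk8, cyclin and kinase of the Mediator kinase module, were both called lower in D5-LSKCD201+. Ccnc stood at 14.8, 14.7 and 14.1 FPKM against 36.5, 34.5 and 35.2 in mESC (-1.23, SE 0.05, adjusted p = 1.39e-08). Cdk8 stood at 3.23, 3.88 and 4.13 against 10.2, 10.1 and 8.23 (-1.15, SE 0.11, adjusted p = 6.19e-06). The groups overlapped in neither gene.

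Against bone marrow 7 of these 15 members were called lower in D5-LSKCD201+ (27.2% of all genes) and 1, Ccnc, higher (1.38; 17.5% of all genes). Against fetal liver 6 were called lower (19.6% of all genes) and none higher (15.1%). Cdk9, which with cyclin T releases paused RNA polymerase II, was 104, 122 and 123 FPKM in bone marrow, 107, 105 and 101 in fetal liver, and 21.2, 29.8 and 28.1 in D5-LSKCD201+, a difference of D5-LSKCD201+ of -2.11 (SE 0.13, adjusted p = 2.82e-06) from bone marrow and -1.96 (SE 0.13, adjusted p = 1.17e-05) from fetal liver. Ccnl1, a cyclin linked to pre-mRNA splicing, was 328, 291 and 299 FPKM in bone marrow, 155, 172 and 175 in fetal liver, and 58.3, 58.5 and 56.4 in D5-LSKCD201+ (-2.38, SE 0.06, adjusted p = 1.91e-08, against bone marrow). Both in vivo groups lay above every D5-LSKCD201+ library in both genes. Ccnt1, the CDK9 partner cyclin T1, was 45.7, 44.0 and 45.6 FPKM in bone marrow and 17.6, 16.8 and 16.5 in fetal liver, and fetal liver was lower by -1.36 (SE 0.08, adjusted p = 1.56e-05).

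Cdk8 and Cdk19, the alternative kinases of the Mediator module, differed in order between groups. Cdk19 was 9.76, 9.95 and 9.83 FPKM in bone marrow and 0.953, 1.19 and 1.09 in D5-LSKCD201+, a difference of -2.39 (SE 0.08, adjusted p = 1.22e-07). Cdk8 was 6.67, 3.60 and 3.84 in bone marrow and 9.37, 13.1 and 13.3 in fetal liver, a fetal liver excess of 1.20 (SE 0.23, adjusted p = 0.00336). Of the 2 kinases' summed FPKM, Cdk19 held 68.2% ± 7.69 in bone marrow, 30.0% ± 6.16 in fetal liver, 22.4% ± 1.37 in D5-LSKCD201+, 13.9% ± 4.53 in the CD201- day 5 cells and 4.44% ± 0.466 in mESC (SD, n = 3 each). Replicate 1 of bone marrow, which stood apart, had the lowest bone marrow share at 59.4%. Cdk13, a kinase of the RNA polymerase II tail, was 4.19, 5.29 and 4.84 FPKM in fetal liver and 0.656, 0.654 and 0.733 in D5-LSKCD201+ (-1.78, SE 0.10, adjusted p = 5.27e-06).

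Among the members with no settled place in the cycle, Ccny was the one member called higher in D5-LSKCD201+ than in the CD201- day 5 cells. It encodes cyclin Y, a membrane-bound partner of CDK14 and CDK16, and stood at 19.1, 19.4 and 21.0 FPKM against 6.80, 8.57 and 7.2. The difference was 1.3 (SE 0.10, adjusted p = 2.27e-05), without overlap. D5-LSKCD201+ was the highest of the 5 groups, as mESC had 3.71 to 4.68, fetal liver 9.47 to 10.2 and bone marrow 5.48 to 7.33 FPKM. The difference was 2.02 (SE 0.08, adjusted p = 2.08e-08) from mESC and 1.52 (SE 0.10, adjusted p = 4.6e-06) from bone marrow, and 0.96 (SE 0.07, adjusted p = 2.87e-05) from fetal liver, under the fold threshold.

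Cdk16, a kinase that cyclin Y can activate, was also highest in D5-LSKCD201+, at 59.7, 57.8 and 54.1 FPKM. It was 18, 14.7 and 13.9 in bone marrow and 32.0, 20.6 and 22.4 in fetal liver. D5-LSKCD201+ was above bone marrow by 1.82 (SE 0.10, adjusted p = 1.24e-06) and above fetal liver by 1.19 (SE 0.16, adjusted p = 0.000464), but against D5-LSKCD201- (35.5 to 50.4 FPKM) the difference was 0.35 (SE 0.14, adjusted p = 0.0542). Cdk14, the other kinase partner of cyclin Y, was 0.308, 0.221 and 0.318 FPKM in mESC, 2.54, 2.89 and 1.90 in the CD201- day 5 cells and 1.43 to 2.19 in the CD201+ day 5 cells. The mESC libraries were below both day 5 groups, and no test is given because the gene passed the filter only through the day 5 cells.

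Ccng2, an atypical cyclin linked to cell cycle arrest, was lowest in mESC and highest in bone marrow. Its level was 5.57, 5.39 and 6.07 FPKM in mESC, 21.5, 22.8 and 22.0 in the CD201- day 5 cells, 37.6, 38.2 and 38.7 in D5-LSKCD201+, 55.2, 37.2 and 37.0 in fetal liver and 76.5, 73.6 and 64.8 in bone marrow. Only the D5-LSKCD201+ and fetal liver values overlapped. The difference from mESC was 2.55 (SE 0.06, adjusted p = 4.27e-10) in the CD201+ day 5 cells and 1.79 (SE 0.08, adjusted p = 2.97e-06) in the CD201- day 5 cells. Between the day 5 groups it was 0.76 (SE 0.06, adjusted p = 1.87e-05), under the fold threshold.

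Its relative Ccng1, a p53 target gene, had another order, with 64.7 to 67.9 FPKM in mESC, 48.6 to 51.7 in D5-LSKCD201+, 21.0 to 22.2 in bone marrow and 13.6 to 16.5 in fetal liver, where D5-LSKCD201+ was higher by 1.69 (SE 0.09, adjusted p = 3.52e-06). Ccnj was higher in D5-LSKCD201+ (5.28 to 5.6 FPKM) than in mESC (1.59 to 2.44) by 1.09 (SE 0.11, adjusted p = 1.1e-05), but under the fold threshold without mESC replicate 2 (0.98). Cdk18 was lower in D5-LSKCD201+ (0.555 to 0.998 FPKM) than in bone marrow (5.91 to 7.88), by -2.15 (SE 0.14, adjusted p = 3.78e-06), and than in fetal liver (4.29 to 5.88), by -1.75 (SE 0.14, adjusted p = 3.51e-05). Cdk17 stood at 13.7, 23.2 and 23.3 FPKM against 13.2, 4.48 and 12.8 in the CD201- day 5 cells, without overlap, and differed by 1.0 (SE 0.39, adjusted p = 0.0549). It was called higher after quantile normalization, with the closest pair of libraries averaged and with 1 fit over all 5 groups. It was also called higher without D5-LSKCD201+ replicate 1 or without replicate 1 or 3 of the CD201- cells. Cdk17 was picked out after its values were seen. With 1 fit over all 5 groups, which left the differences as they were, 7 members were called against 6. Cdk17 was the only uncalled member that reached the fold threshold. It was lowest in D5-LSKCD201- replicate 2, the library that stood apart, and its difference was smaller without that library.

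**Figure D4:**
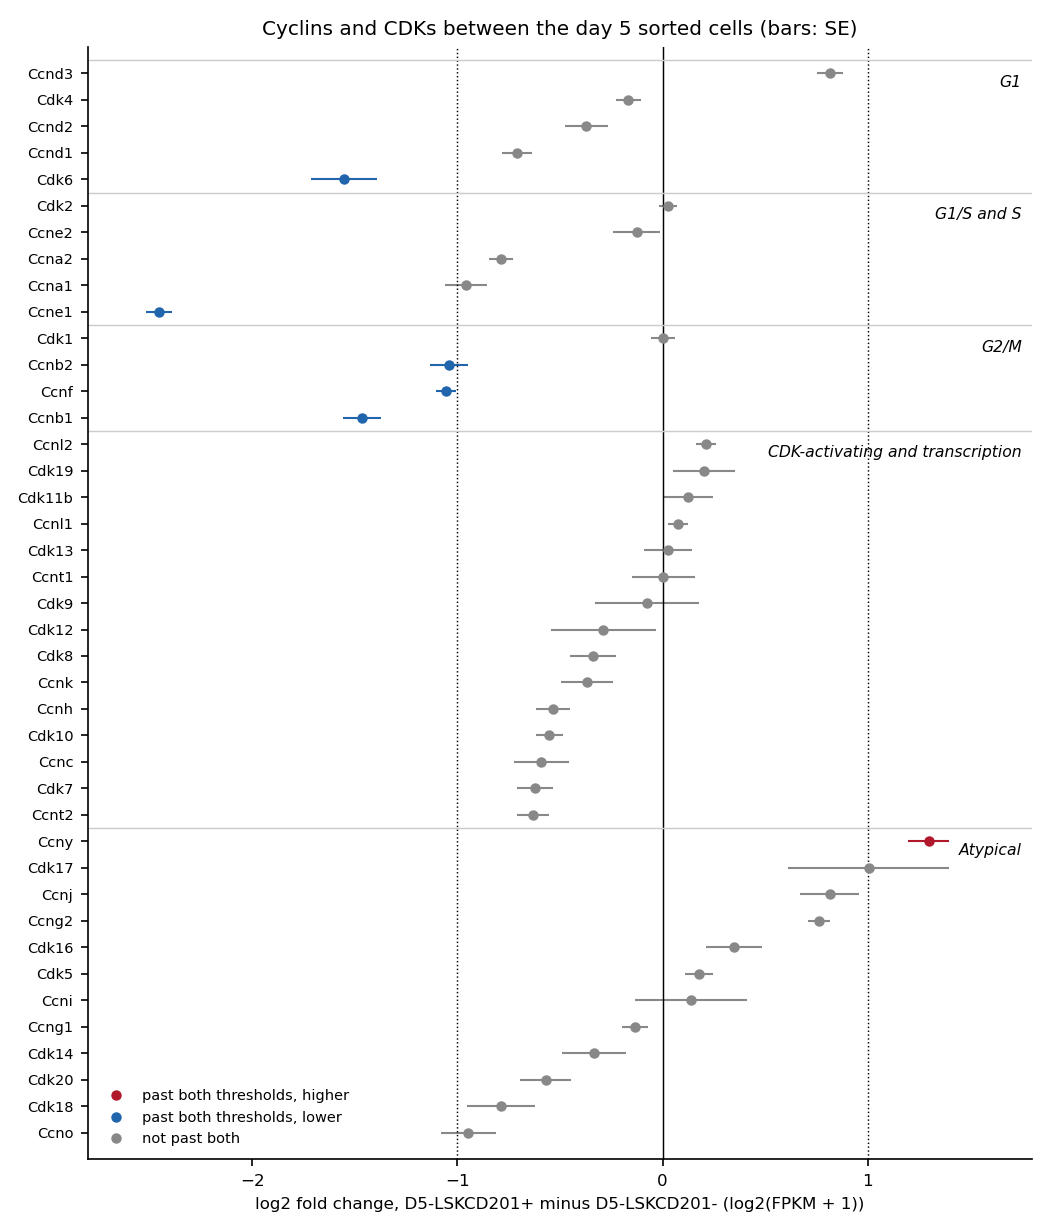
Difference between D5-LSKCD201+ and D5-LSKCD201- in log2(FPKM + 1) for the 41 members tested, with SE bars, grouped by role and ordered by size, with dotted lines at -1 and 1. Cdk6, Ccne1, Ccnb1, Ccnb2 and Ccnf lie past -1 and Ccny past 1 with an adjusted p under 0.05, whereas Cdk17 reaches 1.0 with a wide bar.

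Other genes of the cell cycle machinery, in lists written by hand, gave the following counts between the day 5 groups, where 10.8% of all genes were called higher and 13.9% lower. Of 6 CDK inhibitors tested 1 was called higher in D5-LSKCD201+, Cdkn1c, which encodes p57 (882 ± 3.15 against 49.1 ± 2.82 FPKM, SD, n = 3), and none lower. Of 7 direct CDK regulators 2 were called lower, the inhibitory kinase gene Wee1 (-1.24) and Cks2 (-1.05). Among 16 genes of the RB and E2F network 3 were lower, Mybl2 (-2.86), Tfdp2 (-1.35) and E2f8 (-1.05). Of 9 genes for cyclin degradation 2 were lower, Fbxo5 (-1.61) and Cdc20 (-1.04), and of 14 proliferation genes 1 was lower, Mcm7 (-1.39). No gene of the last 4 lists was called higher. On the adjusted p alone, which 39.6% of all genes passed in the lower direction, 6 of 7 CDK regulators, 8 of 16 RB and E2F genes, 7 of 9 degradation genes and 12 of 14 proliferation genes were lower. Between fetal liver and bone marrow 6 of 7 CDK regulators, 7 of 16 RB and E2F genes, 4 of 9 degradation genes and 9 of 14 proliferation genes were called higher in fetal liver (7.78% of all genes). Of 5 CDK inhibitors tested 2 were called lower there, Cdkn1a (-2.30) and Cdkn2c (-1.14), against 11.3% of all genes. Of the RB and E2F genes 1 was called lower, Rbl2 (-1.77). The inhibitor Cdkn1c was higher in fetal liver by 0.72 (SE 0.08, adjusted p = 0.000319), under the fold threshold.

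In the coculture, which compared total day 5 cells on OP9 with those on gelatin, no member was called. All 41 members tested lay within a fold threshold of 1, against 2.11% of all 12958 genes called higher and 0.509% called lower in 3D+OP9, and 10 members had an unadjusted p under 0.05, as did 22.9% of all genes. By limma's adjusted p alone 2 members differed, Ccnd3 and Ccng2, against 6.88% of all genes. The median difference was -0.0041 for the members and 0.0098 for all genes.

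Ccnd3 was 89.8, 95.4 and 103 FPKM on OP9 and 74.5, 61.8 and 63.3 on gelatin, a difference of 0.53 (SE 0.09, adjusted p = 0.0187). Ccng2 was 15.2, 16.4 and 19.7 FPKM on OP9 and 11.2, 10.6 and 11.0 on gelatin, a difference of 0.59 (SE 0.11, adjusted p = 0.0217). In neither gene did the groups overlap. The largest difference of any member was that of Ccng1, which was 46.1, 43.4 and 56.7 FPKM on OP9 and 57.2, 115 and 96.5 on gelatin (-0.82, SE 0.24, adjusted p = 0.0972). Ccng1 was called lower on OP9 once gelatin replicate 1 was left out, and it was picked out after its values were seen.

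Of the members called between the sorted day 5 cells, none passed the test here. Ccne1 was 50.1, 47.0 and 71.3 FPKM on OP9 and 54.0, 79.4 and 73.7 on gelatin (-0.30, SE 0.19, adjusted p = 0.404). Ccnb1 was 94.5, 100.3 and 117 against 93.5, 122 and 113 (-0.07, SE 0.12, adjusted p = 0.774), and Cdk6 5.39, 5.21 and 4.08 against 5.79, 6.33 and 4.68 (-0.16, SE 0.15, adjusted p = 0.562). The groups overlapped in all 3 genes. In the remaining core members the adjusted p was 0.19 or more. For Ccnd2, 3D+OP9 replicate 3, the library that stood apart, was lowest at 8.33 FPKM against 20.7 and 18.6 in its group and 16.1 to 19.2 on gelatin. On OP9 the stromal genes summed to 62.3 to 71.7 FPKM and on gelatin to 29.3 to 41.0, and the pluripotency genes to 833 to 1676 and 1283 to 1373. Endothelial genes summed to 86.0 to 102 FPKM on OP9 and 9.63 to 21.2 on gelatin (7 of 8 called higher), and erythroid genes to 148 to 506 and 4.76 to 15.0 (4 of 6 called higher). The part of these cell type markers in the differences of Ccnd3, Ccng2 and the other members was not tested.

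**Figure D5:**
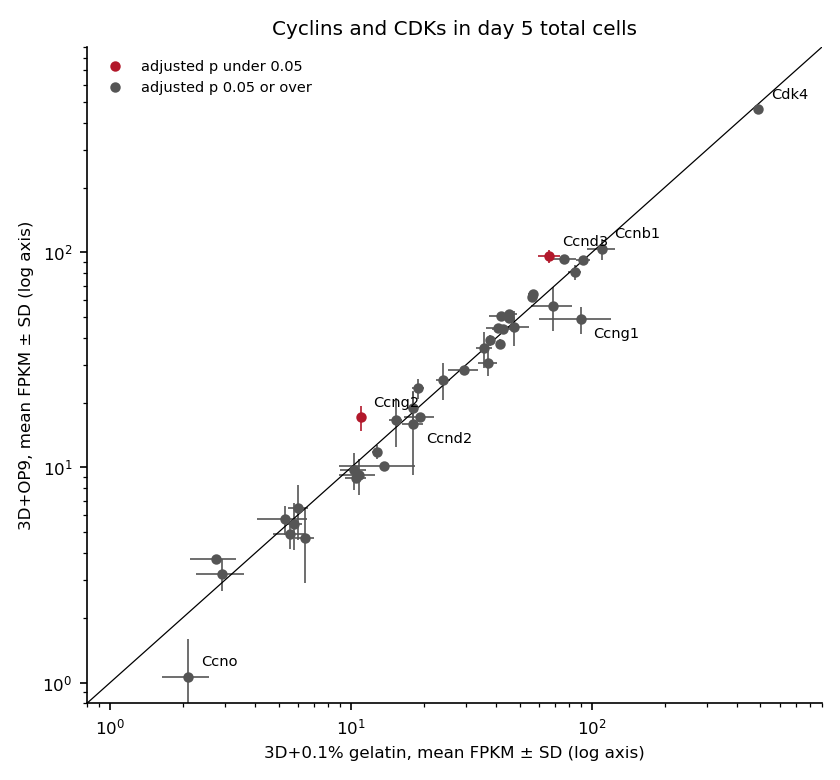
Mean FPKM of the 41 members tested in total day 5 cells on OP9 (vertical) and on gelatin (horizontal), with SD bars over 3 libraries and both axes logarithmic, and the line of equal levels. Most genes lie on the line, with Ccnd3 and Ccng2 above it (adjusted p under 0.05) and Ccng1 below it.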

How the data were processed

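The members and gene lists were chosen with earlier results of these data known. The authors made the libraries with an mRNA-seq kit and read them as pairs on an Illumina instrument. Per the methods, the authors aligned reads with HISAT2 2.0.5, assembled with StringTie 1.3.3 and deposited FPKM for each gene and library. The submitters' processing notes list both GRCm38 and mm9, and Cuffdiff 1.3.0, whose comparisons are not used here. All 43 members' loci in the sorted-cell table overlapped the same gene in GENCODE M21 (GRCm38). The methods and notes describe 1 pipeline for all samples. The coculture table has other gene identifiers and no coordinates, and its levels of some genes differ from those of the sorted-cell table, so the tables were taken as normalized separately, and no test crossed them. From FPKM plus 1 on the log2 scale, 7 comparisons were fitted in R 4.3.3 by limma 3.58.1 with its mean-variance trend, as two-sided tests, after the procedure was tested on simulated data. The paper calls replicates biological and its coculture experiments independent. The labels name no separate cultures or animals. Deviations of same-numbered libraries correlated at 0.242, 0.202 and 0.159 between fetal liver and bone marrow, and at 0.182, 0.0724 and 0.291 in the coculture. In the other comparisons the correlations ran from -0.197 to 0.102. No label gives a pairing, and the main fits did not pair libraries by replicate number. Genes named were the D-, E-, A- and B-type cyclins and Cdk1, Cdk2, Cdk4 and Cdk6, every other member called between the day 5 groups, in each other comparison the 3 other called members with the largest differences in each direction, and members that fill a role described, such as Ccnh and Cdk7. The alternatives tried were quantile normalization, 0.1 as the pseudocount, all genes kept or only those averaging 1 FPKM, the trend switched off, a replicate block, 1 fit over all 5 sorted groups, the adjusted p alone, leaving out each library, and, chosen after seeing the data, averaging the closest pair of a group. Figures were drawn with matplotlib 3.10.9 in Python 3.11.15.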

Additional observations from a re-analysis of the deposited data

How the results depend on the processing

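Of 868 single-gene values under alternatives, covering 63 pairs of a named gene and a comparison, 856 kept their direction and whether they passed the fold and adjusted p thresholds together. The pairs left out Cdk17 between the day 5 groups and Ccng1 in the coculture, whose calls changed under settings given above. Within the 63 pairs, the adjusted p alone crossed 0.05 for 2 uncalled genes between the day 5 groups. These were Cdk4 under 10 of 14 alternatives and Ccnd2 with no filter (0.0558, range over the alternatives 0.00316 to 0.0558). The 5 reversed values were all of Cdk1 between the day 5 groups, where the main difference was 0.0039: it ran from -0.034 to 0.050 with 1 library left out and was -0.019 with the closest pair averaged. Ccna1 passed the fold threshold with a pseudocount of 0.1 (-3.15), where only the CD201- cells had brought it past the filter, and Ccnb2, Ccnj and Ccnd2 fell short of it under the settings given above, together with Ccnj against mESC after quantile normalization (0.97). The count of members called between the day 5 groups was 6 (24.7% of all genes called), and 10 with a pseudocount of 0.1 (32.6%), of which 2, Ccna1 and Ccno, passed the filter only through the CD201- cells. With the adjusted p alone the counts were 25 between the day 5 groups (68.3% of all genes), 31 for D5-LSKCD201+ (85.5%) and 19 for D5-LSKCD201- (54.6%) against mESC, 26 against fetal liver (72.1%), 34 against bone marrow (83.4%), 29 between fetal liver and bone marrow (55.1%) and 2 in the coculture (6.88%). The counts against mESC were over tested members that included Cdk14 and Cdk19, and for D5-LSKCD201+ also Ccno. These passed the filter only through the group where they were higher. With 1 library left out the coculture count was 0 to 1, the 1 being Ccng1 without gelatin replicate 1. Quantile normalization moved the median of all genes by 0.11 between the day 5 groups, -0.15 for D5-LSKCD201- against mESC, 0.11 for D5-LSKCD201+ against fetal liver, 0.21 against bone marrow and 0.11 between fetal liver and bone marrow. Members called higher and lower were then 2 and 4 between the day 5 groups (12.5% and 11.7% of all genes), 2 and 2 for D5-LSKCD201- against mESC (8.12% and 5.45%), and 13 and 9 for D5-LSKCD201+ against bone marrow (21.0% and 21.8%).

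With the replicate block 11 members were called between fetal liver and bone marrow, as without it, and 6 between the day 5 groups, and the block changed no call of a named member in any comparison. Outside fetal liver and bone marrow the correlations of deviations ran from -0.197 to 0.291, the highest being in the coculture. No label gives a pairing in any comparison. The Ccnd2 share difference ran from -5.82 to -4.45 percentage points and the Cdk6 share difference from -1.0 to -0.900 with 1 library left out. Paired by replicate number they were -5.17 and -0.964, each at an exact p of 0.25, the smallest that 3 pairs can give. Depth is unknown, so members under 1 FPKM have no counting error attached.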
